A study of Mus musculus with 24 samples.

Results

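The effect of blocking calcineurin, and how it changed after withdrawal, was followed in embryoid bodies (EBs). These are suspension aggregates in which mouse embryonic stem cells differentiate, here of the 46C line, whose Sox1 locus drives a fluorescent reporter. The change of the drug effect is the treated minus untreated difference at day 12 less the same difference at day 8, on the log2 scale, for all 21789 probe sets with a single gene symbol. It rests on 12 of the 24 arrays of the study, 3 in each of 4 groups named by their labels. Treated EBs had received 2 drugs between days 3 and 8, FK506 at 100 ng/ml together with 1 ug/ml of cyclosporin A, and were collected at day 12 or at day 8. Untreated EBs of the same line were collected on the same days. The 4 remaining groups, treated and untreated EBs of days 4 and 6, entered the fit and served to follow the effects through time. All groups were grown alike, with LIF on gelatin from day 1, low attachment dishes from day 3, replating on day 7 and a serum-free medium from day 8. Drug removal and the medium switch therefore fell on one day in the treated EBs, and the 2 events cannot be told apart. All arrays come from 1 cell line, and the replicates were 3 independent experiments per group.

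FK506 and cyclosporin A each bind a cellular immunophilin, and the complex blocks calcineurin, a calcium-dependent phosphatase. Active calcineurin dephosphorylates NFAT transcription factors, which then enter the nucleus. In differentiating embryonic stem cells the pathway is known for a part in the exit from self-renewal. A serum-free medium with insulin, transferrin and selenium is commonly used to favour neural progenitors.

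Array medians lay between 7.80 and 7.88 on the log2 scale, and the most alike arrays still differed, with an SD of 0.175 over probe sets. Arrays have no read depth, and their number limits the precision: the median SE of the change was 0.13, against 0.09 for the effect at day 8. Replicate 2 of both day 8 groups stood apart, with more Pou5f1 and less Postn than the other arrays of its group, so counts are also given without that pair. Treated day 12 replicate 2 differed from its group as well. Its mean over 29 mesenchyme and matrix genes was 10.10, against 10.67 and 10.47 in replicates 1 and 3. All p-values below are adjusted by Benjamini-Hochberg over the 21789 probe sets in limma's moderated test, with a threshold of 0.05. Counts at an unadjusted p under 0.05 are also given for some lists. The share of all probe sets at that unadjusted threshold was not counted, so these counts are no result about a list. The median over all probe sets was 0.03 for the change, 0.01 for the day 12 effect and -0.04 for the day 8 effect. Signals are log2 values, listed by replicate number within a group.

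The drug effect changed between the 2 days for 1078 probe sets, 4.95% of those tested. It moved upward for 544 of them (2.5%) and downward for 534 (2.45%). The replicate numbers pair treated with untreated arrays within day 8 and within day 12, and with that pairing as a block the counts were 1074 upward (4.93%) and 1043 downward (4.79%). The treated EBs differed from the untreated ones for more probe sets at day 12, with 1543 higher (7.08%) and 2199 lower (10.1%), than at day 8, with 1014 higher (4.65%) and 843 lower (3.87%).

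Each called effect was put in a class by its calls at both days, as a description, because the classes use the same arrays as the change. An effect emerged where the change and the day 12 effect were called and the day 8 effect was not, which held for 722 probe sets (351 higher and 371 lower in treated EBs). It faded where the change and the day 8 effect were called and the day 12 effect was not, which held for 209 (105 higher and 104 lower at day 8). It reversed where both effects were called with opposite signs, in 35 probe sets, all with a called change: 19 were higher at day 12 and lower at day 8, and 16 the other way round. It persisted where both effects were called with one sign and the change was not, in 662 (345 higher and 317 lower). It grew in 13 and shrank in 1, and 98 changes had neither day called. With the replicate block within day the classes held 1104 emerged, 527 faded, 141 reversed, 1103 persisted, 99 grown and 58 shrunken effects. Without replicate 2 of both day 8 groups they held 571, 454, 121, 866, 4 and 31 in the same order, so class sizes moved with these choices.

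**Figure D1:**
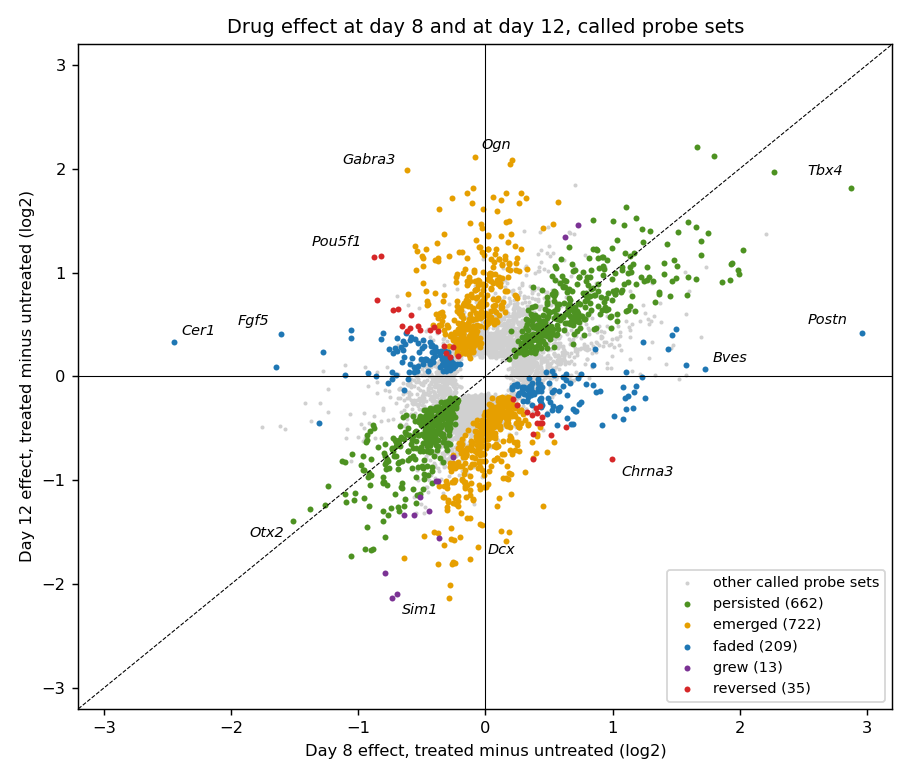
Treated minus untreated difference at day 12 (vertical axis, log2) against that at day 8 (horizontal axis, log2). Each point is 1 probe set called for the change or for the effect on either day, coloured by class, and the dashed line marks equal effects. The 35 reversed probe sets lie in the upper left and lower right, the 722 emerged ones along the vertical axis and the 209 faded ones along the horizontal axis.

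The effect moved upward in 11 of 24 measured naive pluripotency genes. Pou5f1 (Oct4), the core transcription factor of pluripotent cells, measured 9.35, 9.22 and 9.03 in treated EBs at day 12, against 8.44, 7.88 and 7.81 in untreated EBs. At day 8 it measured 10.06, 11.72 and 10.79 in treated EBs, against 11.49, 11.90 and 11.65 in untreated EBs. All treated arrays lay above the untreated ones at day 12, while at day 8 2 treated arrays lay below them and replicate 2 lay among them. The effect was 1.16 at day 12 (adjusted p = 0.0018, limma) and -0.82 at day 8 (adjusted p = 0.0364), a change of 1.98 ± 0.34 (SE; adjusted p = 0.0024), or 3.94-fold. Both arms lost Pou5f1 signal over these days, by -1.66 in treated EBs and by -3.64 in untreated EBs. In bulk RNA, fewer cells of a type and less RNA per cell cannot be told apart, here and below.

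Utf1, a chromatin factor of undifferentiated stem cells, behaved alike. It measured 9.02, 9.60 and 9.38 in treated EBs at day 12, against 8.24, 8.33 and 7.97 in untreated EBs, with no overlap. At day 8 the values were 9.63, 11.39 and 10.24 in treated EBs, against 11.19, 11.52 and 11.18 in untreated EBs, where treated replicate 2 again lay within the untreated range. The change was 2.03 ± 0.37 (SE; adjusted p = 0.0031, limma). Lefty1, a secreted inhibitor of Nodal, had an effect of 0.74 at day 12 and -0.85 at day 8, and Epp13 of 0.65 and -0.69, with changes of 1.59 and 1.34 (adjusted p = 0.0047 and 0.0119, limma). Mgst1, a microsomal glutathione transferase, also reversed, at 0.64 and -0.73, but differed in its course: it rose from day 8 to day 12 by 1.93 in treated EBs and by 0.57 in untreated EBs.

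Nanog, the homeobox factor that sustains self-renewal, emerged. It measured 10.67, 10.46 and 10.35 in treated EBs at day 12, against 9.54, 9.39 and 8.94 in untreated EBs, and the groups did not overlap. Its day 8 signals were 11.11, 12.35 and 11.64 in treated EBs, against 12.08, 12.52 and 12.11 in untreated EBs, which overlapped. The effect was 1.20 at day 12 (adjusted p = 0.000265, limma) and -0.54 at day 8 (adjusted p = 0.1067), a change of 1.74 ± 0.29 (SE; adjusted p = 0.0019). Dppa2, a nuclear protein of pluripotent cells, had a change of 1.97 (adjusted p = 0.0011, limma) on the brighter of its probe sets and of 1.20 on the other (adjusted p = 0.0778), so its call holds for 1 of 2 probe sets.

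Of 24 measured naive pluripotency genes the effect moved upward in 11 and downward in 0, with a median change of 0.59, against 0.03 over all probe sets and 2.5% called upward among them. The 11 were Utf1, Pou5f1, Dppa2, Nanog, Dppa5a, Tdgf1, Fbxo15, Esrrb, Fgf4, Tfcp2l1 and Klf5. Of these, Fgf4 lost its call without 10 of the 12 arrays in turn, Tdgf1 and Klf5 without 9, Esrrb without 8, Tfcp2l1 without 6 and Fbxo15 without 3, with adjusted p up to 0.0939, 0.103, 0.116, 0.0904, 0.0733 and 0.0542 (limma). Utf1, Pou5f1, Dppa2, Nanog and Dppa5a kept theirs without any 1 of the 12. Pou5f1 and Utf1 lost theirs when only the 12 arrays of days 8 and 12 were fitted. At day 12, 12 of the 24 were higher and 2 lower in treated EBs. At day 8, 1 was higher and 4 were lower. Over all probe sets 7.08% were higher and 10.1% lower at day 12, against 4.65% and 3.87% at day 8. Sox2, which is also a neural progenitor gene, did not follow: its effect was -0.97 at day 12 and -0.80 at day 8, with a change of -0.17 (95% interval -0.83 to 0.49). The list count depended on single arrays, from 5 without untreated day 12 replicate 3 or treated day 8 replicate 3 to 17 without treated day 8 replicate 2. It was 6 without treated day 12 replicate 1, treated day 8 replicate 1 or untreated day 8 replicate 2, and 7 without treated day 12 replicate 3 or untreated day 12 replicate 1. The block gave 14, and leaving out the day 8 replicate 2 pair gave 15.

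The sequence before the Nanog start is shown because it is the best studied control region of this group. It holds an octamer-like motif (TTTGCAT) followed 1 base later by a Sox-type motif (CATTGT, here on the other strand as ACAATG), both in capitals. The stretch spans the 250 bases before the RefSeq start on the plus strand, at chr6:122707239-122707488 of GRCm38.p6.
Nanog: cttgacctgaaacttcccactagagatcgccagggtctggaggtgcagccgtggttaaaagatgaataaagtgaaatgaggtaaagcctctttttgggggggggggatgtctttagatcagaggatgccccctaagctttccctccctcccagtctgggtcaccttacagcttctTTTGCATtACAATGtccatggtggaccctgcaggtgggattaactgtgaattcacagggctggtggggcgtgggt
Of 25 listed naive genes, 15 had a RefSeq promoter entry, and 3 of these (Nanog, Sox2 and Zfp42) held TTTGCAT on either strand, against 4.65% of all 27025 genes. CATTGT was present in 3 of the 15 (Pou5f1, Nanog and Lin28a), against 12.2% of all genes. Of these 5 genes, the effect changed in Nanog and Pou5f1.

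In 2 genes of the primed epiblast, the later pluripotent state, the effect faded. Fgf5, an epiblast growth factor, measured 7.49, 8.00 and 8.05 in treated EBs at day 12, against 7.60, 7.38 and 7.34 in untreated EBs, with overlap. Day 8 signals were 7.57, 9.93 and 8.67 in treated EBs, against 9.75, 10.76 and 10.48 in untreated EBs, of which treated replicate 2 exceeded the lowest untreated array. The effect was 0.41 at day 12 and -1.61 at day 8, a change of 2.02 ± 0.50 (SE; adjusted p = 0.0228, limma). The adjusted p of Fgf5 was 0.0683 without treated day 12 replicate 3, 0.0517 without untreated day 12 replicate 3, 0.056 without treated day 8 replicate 3 and 0.0715 without untreated day 8 replicate 2. Dnmt3b, a de novo DNA methyltransferase, had a change of 1.22 (0.42 at day 12 and -0.81 at day 8; adjusted p = 0.0142, limma). These were the 2 upward changes among 17 primed epiblast genes (2.5% upward over all probe sets), with 0 downward and a median of 0.39. The block gave 5 upward and 1 downward. The upward count was 8 without treated day 8 replicate 2, 5 without untreated day 8 replicate 1, 3 without replicate 2 of treated or of untreated day 12, and 1 without any of the 4 arrays whose loss ended the Fgf5 call.

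Cer1, a secreted antagonist of Nodal and BMP made by anterior endoderm and early mesendoderm, had the largest upward change of all probe sets tested. It measured 7.31, 7.57 and 7.32 in treated EBs at day 12, against 7.53, 6.90 and 6.79 in untreated EBs, and the groups overlapped. At day 8 it measured 6.80, 8.81 and 7.82 in treated EBs, against 9.29, 10.56 and 10.92 in untreated EBs, and the groups did not overlap. The effect was 0.33 at day 12 and -2.45 at day 8, a change of 2.78 ± 0.58 (SE; adjusted p = 0.008, limma). Untreated EBs lost 3.18 log2 units of Cer1 signal over these days, while the treated course of -0.41 was not called. Cer1 and Lefty1 were the 2 upward changes among 23 streak and mesendoderm genes (median 0.44, 0 downward), against 2.5% upward over all probe sets. The upward count was 5 with the block, 5 without the day 8 replicate 2 pair and 10 without treated day 8 replicate 2 alone.

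Of 35 measured proneural and neuronal genes, 30 were lower and 1 higher in treated EBs at day 12, against 8 lower and 0 higher at day 8. Over all probe sets 10.1% were lower at day 12 and 3.87% at day 8. Dcx, a microtubule-binding protein of migrating neurons, measured 7.35, 8.15 and 7.80 in treated EBs at day 12, against 9.76, 8.91 and 9.57 in untreated EBs. At day 8 it lay between 5.88 and 5.98 in treated EBs and between 5.96 and 6.05 in untreated EBs, where signals were low and may be background. The groups were apart at day 12 and overlapped at day 8. The change was -1.59 ± 0.24 (SE; adjusted p = 0.000711, limma), a 3.01-fold shift of the effect. Dcx rose in both arms, by 1.83 in treated EBs and by 3.41 in untreated EBs.

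Tubb3, the neuronal beta-tubulin, measured 8.09, 8.29 and 8.13 in treated EBs at day 12, against 9.17, 8.73 and 9.20 in untreated EBs. Its day 8 signals were 7.82, 7.64 and 7.56 in treated EBs, against 7.57, 7.52 and 7.43 in untreated EBs. The treated arrays were the lower ones at day 12, and the groups overlapped at day 8. Its change was -1.03 ± 0.14 (SE; adjusted p = 0.000371, limma). The changes of Elavl4, a neuronal RNA-binding protein, and Neurod1, a neuronal differentiation factor, were -1.54 and -1.38 (adjusted p = 0.0027 and 0.0092, limma). Those of the proneural factor Neurog2 and of the zinc finger factor Myt1 were -0.99 and -0.98 (adjusted p = 0.000691 and 0.001, limma).

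Of the 35 neuronal list genes the effect moved downward in 14 and upward in 1, with a median change of -0.60. Over all probe sets 2.45% moved downward. The 1 upward gene was Atoh1, a proneural factor of dorsal hindbrain and sensory cells (0.66 at day 12 and -0.10 at day 8, adjusted p of the change = 0.0136, limma). The downward count was 8 without untreated day 12 replicate 3 and 9 without replicate 1 or 3 of treated day 12 or replicate 3 of treated day 8. Mean signals of the list lay between 7.81 and 8.22 in treated arrays at day 12, against 8.61 to 8.96 in untreated arrays. Over the same arrays the mean of the naive pluripotency list lay between 8.78 and 9.02 in treated EBs, against 8.29 to 8.50 in untreated EBs, and the part of that difference in the neuronal one was not tested.

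Chrna3, a nicotinic acetylcholine receptor subunit, reversed downward. It measured 7.14, 7.85 and 7.54 in treated EBs at day 12, against 8.47, 7.99 and 8.47 in untreated EBs. Day 8 signals were 8.11, 8.06 and 8.76 in treated EBs, against 7.14, 7.26 and 7.53 in untreated EBs. The groups did not overlap on either day, and the order of the arms was turned round. The change was -1.80 ± 0.26 (SE; adjusted p = 0.000608, limma), with treated EBs falling by 0.80 and untreated EBs rising by 1.00. Scn3b, a sodium channel subunit, Gfra1, the co-receptor of GDNF, Slc22a23, a solute carrier, and Mllt3, an elongation complex protein, also reversed downward, with changes of -1.17, -1.12, -1.08 and -0.93 (adjusted p = 0.000156, 0.0091, 0.0035 and 0.0011, limma).

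Sim1, a transcription factor of the hypothalamus, measured 7.16, 7.77 and 7.89 in treated EBs at day 12, against 9.89, 9.68 and 9.64 in untreated EBs. At day 8 it measured 6.90, 6.87 and 6.90 in treated EBs, against 7.25, 7.24 and 7.06 in untreated EBs. Treated arrays were the lower ones on both days, but the day 8 effect of -0.29 was not called (adjusted p = 0.1906) and the day 12 effect was -2.13. The change of -1.84 ± 0.19 (SE; adjusted p = 5.87e-05, limma) was the largest called downward one after Postn. Its relative Sim2 had a change of -1.64, and Dbx1, a homeobox factor of neural progenitors, of -1.55 (adjusted p = 0.003 and 0.0087, limma).

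Other large downward changes among named genes were in Clvs1 (-1.74), Ppp1r17 (-1.68), Gpm6a, a neuronal membrane glycoprotein (-1.60), Efcab1 (-1.56) and Pak3, a kinase of neuronal processes (-1.43). Each was called with an adjusted p between 0.000123 and 0.000848 (limma), had emerged by its calls and kept the treated arrays below the untreated ones at day 12. Apcdd1, a Wnt inhibitor, followed another path: its effect was 1.51 at day 6, 0.45 at day 8 and -1.25 at day 12, with a change of -1.70 (adjusted p = 0.0029, limma). Its day 6 and day 12 effects were called and its day 8 effect was not.

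Neural progenitor genes were split in the change of effect. Of 28 measured, 18 were lower and 1 higher in treated EBs at day 12, against 13 lower and 0 higher at day 8. Over all probe sets 10.1% were lower at day 12 and 3.87% at day 8. The change was downward in 6 (Dbx1, Olig2, Nes, Irx3, Hes5 and Msi1) and upward in 0, with a median of -0.14. The downward share over all probe sets was 2.45%. Another 9 persisted, against 662 of all 21789 probe sets. The block gave 7 downward and 3 upward changes. The downward count was 4 without treated day 12 replicate 1, untreated day 12 replicate 3 or treated day 8 replicate 3. It was 8 without treated day 12 replicate 2. The Msi1 call was lost without 10 of the 12 arrays in turn (adjusted p up to 0.131, limma). Nes (nestin), an intermediate filament of progenitors, had a change of -1.04 ± 0.24 (SE; adjusted p = 0.0159, limma), being called at day 12 (-1.09) and not at day 8 (-0.05). Olig2, a ventral progenitor factor, had a change of -1.06 (adjusted p = 7.04e-05, limma).

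Sox1, the early neural marker that carries the reporter, had a persisting effect. It measured 8.61, 8.93 and 8.86 in treated EBs at day 12, against 9.16, 8.99 and 9.20 in untreated EBs, and 8.43, 8.45 and 8.51 in treated EBs at day 8, against 8.83, 8.92 and 8.87 in untreated EBs. On both days the treated arrays were the lower ones, and the change of 0.09 had a 95% interval of -0.16 to 0.34. Pax6, a neural and eye factor, had an effect of -1.22 at day 12 and -0.55 at day 8, both called. Its change of -0.67 missed the threshold (adjusted p = 0.0851, limma; 95% interval -1.14 to -0.21) and passed it without treated day 12 replicate 2 (adjusted p = 0.00577).

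Of 18 Notch pathway genes, which hold progenitors undifferentiated, 14 were lower and 0 higher in treated EBs at day 12, against 6 lower and 1 higher at day 8. The shares lower over all probe sets were 10.1% at day 12 and 3.87% at day 8. Of all probe sets 2.45% had a downward and 2.5% an upward change. The effect moved downward in Hey2, Mfng and Hes5 (-1.18, -0.84 and -0.58; adjusted p = 0.0309, 0.0015 and 0.0233, limma) and upward in Hes7 (0.55, adjusted p = 0.0329), with a median of -0.42 and 5 downward with the block. Hey2, a Notch target of heart and vessels, was higher in treated EBs at day 8 by 1.08 and faded. The calls of Hey2, Hes5 and Hes7 were lost without 7, 4 and 5 of the 12 arrays in turn, the highest adjusted p being 0.086, 0.0747 and 0.1096. The downward count was 1 without replicate 1 of treated day 12, 3 of untreated day 12 or 3 of treated day 8, and 7 without treated day 12 replicate 2.

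**Figure D2:**
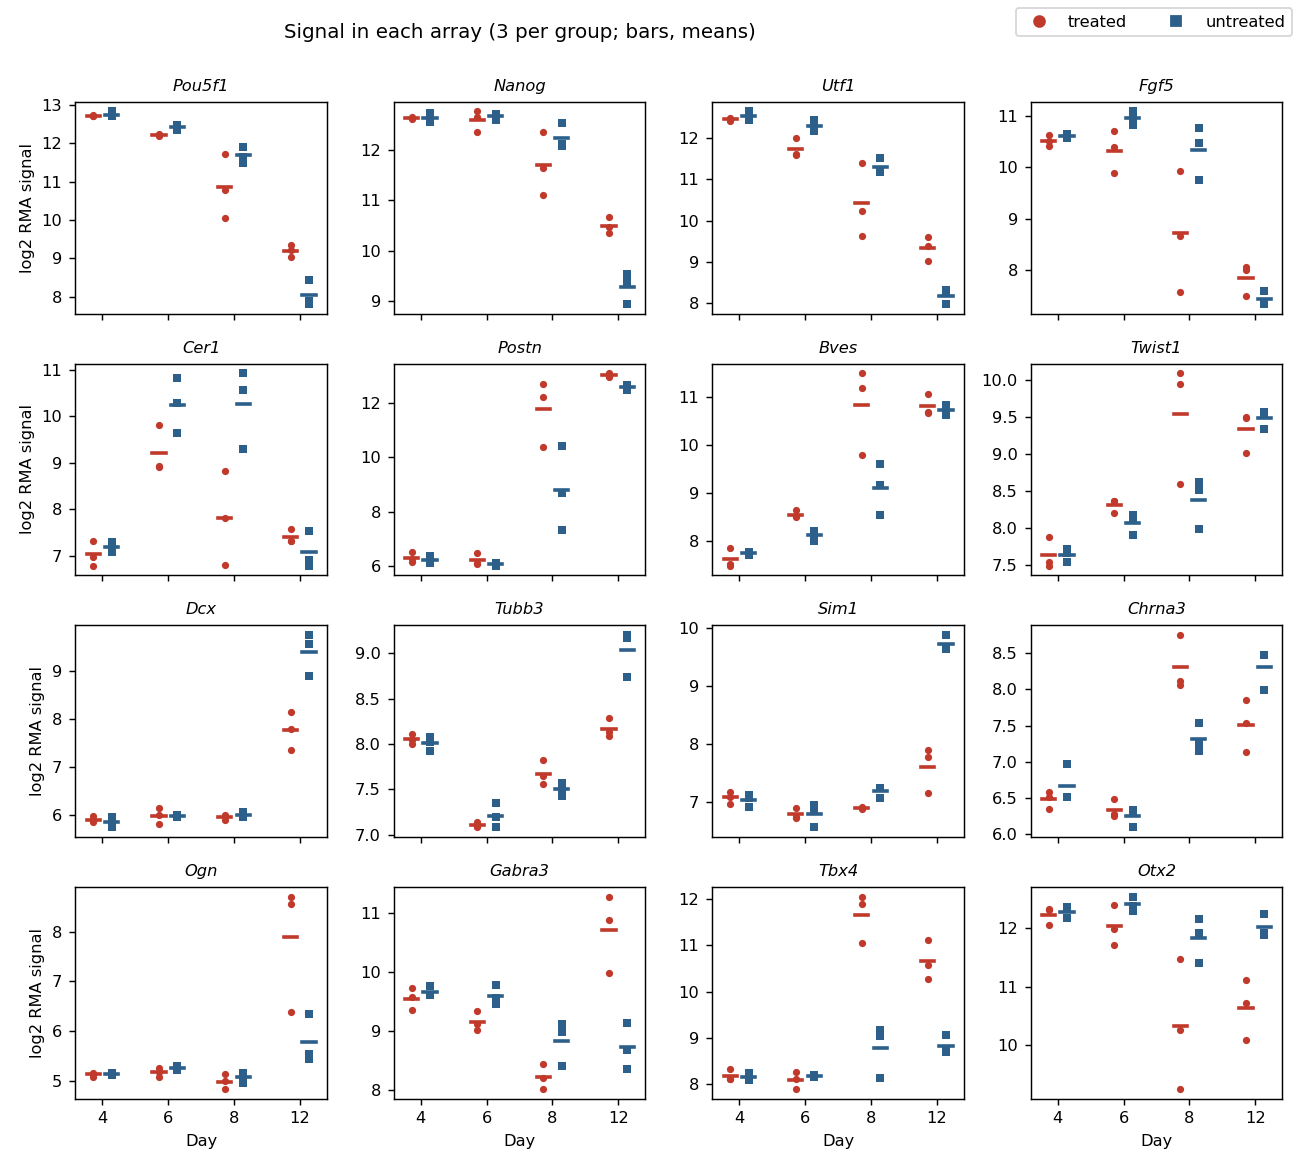
Log2 RMA signal (vertical axes, which do not start at 0) at days 4, 6, 8 and 12 for 16 genes. Red circles are treated arrays, blue squares untreated arrays, 3 per group, and short bars are group means. Pou5f1, Nanog and Utf1 cross over between days 8 and 12, Dcx, Tubb3 and Sim1 separate after day 8, Cer1, Postn and Bves converge, and Tbx4 and Otx2 stay apart.

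The effect moved downward in 7 of 14 measured cholesterol synthesis genes, against 2.45% of all probe sets. Hmgcs1, the HMG-CoA synthase of the mevalonate pathway, measured 12.18, 12.46 and 12.37 in treated EBs at day 12, against 12.82, 12.60 and 12.81 in untreated EBs. Its day 8 signals were 12.31, 12.27 and 12.32 in treated EBs, against 12.13, 12.12 and 12.33 in untreated EBs. The treated arrays were the lower ones at day 12 and overlapped the untreated ones at day 8. Its change was -0.51 ± 0.10 (SE; adjusted p = 0.0074, limma), and it rose in untreated EBs by 0.55, while the treated course of 0.04 was not called.

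Cyp51, the lanosterol demethylase, had an effect of 0.44 at day 6 (called), 0.22 at day 8 (not called) and -0.38 at day 12 (called), with a change of -0.60 (adjusted p = 0.0074, limma). Lss, lanosterol synthase, and Sc5d, a sterol desaturase, had changes of -0.57 and -0.53 (adjusted p = 0.0186 and 0.0104, limma). The 7 downward changes were those of Cyp51, Lss, Sc5d, Hmgcs1, Dhcr7, Msmo1 and Sqle, and 0 were upward. Without 1 array in turn the calls of Dhcr7 and Sqle were lost for 8 of the 12, that of Msmo1 for 7 and that of Lss for 2, with adjusted p up to 0.0904, 0.0783, 0.0799 and 0.0601 (limma). All 14 changes were below 0, between -0.60 and -0.18, with a median of -0.41. At day 12, 10 of 14 were lower in treated EBs (10.1% over all probe sets) and 0 higher, against 0 lower and 1 higher at day 8. The count was 3 without treated day 12 replicate 1 or untreated day 8 replicate 2. It was 4 without replicate 3 of either day 12 group or replicate 1 of either day 8 group, and 10 without treated day 12 replicate 2.

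The stretches before Hmgcs1 and Cyp51 are shown because these genes had the smallest p-values of the list. Capitals mark the sterol regulatory type motif TCACNCCA and the CCAAT box on either strand (read as ATTGG on the other). They lie at chr13:119690101-119690350 on the plus strand and chr5:4104698-4104947 on the minus strand of GRCm38.p6 (RefSeq starts), 250 bases each, and Cyp51 holds no TCACNCCA in this window.
Hmgcs1: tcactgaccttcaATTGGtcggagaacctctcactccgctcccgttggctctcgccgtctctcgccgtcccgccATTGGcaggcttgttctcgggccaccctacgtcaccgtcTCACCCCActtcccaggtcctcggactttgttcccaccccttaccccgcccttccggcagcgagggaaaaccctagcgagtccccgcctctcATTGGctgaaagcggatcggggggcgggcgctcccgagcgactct
Cyp51: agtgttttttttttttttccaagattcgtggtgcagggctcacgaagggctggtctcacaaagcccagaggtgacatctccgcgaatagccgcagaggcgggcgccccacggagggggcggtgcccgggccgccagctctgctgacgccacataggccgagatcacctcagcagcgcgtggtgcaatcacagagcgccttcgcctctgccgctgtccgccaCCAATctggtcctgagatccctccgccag
Of 17 listed cholesterol genes, 11 had a promoter entry, and all 11 held CCAAT in the 250 bases, against 37.5% of all genes. TCACNCCA was present in 2 of the 11, Hmgcs1 and Msmo1, against 4.2% of all genes. The genes with a called change and a promoter entry numbered 6, of which 6 held CCAAT and 2 held TCACNCCA.

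The effect moved upward in 6 of 15 measured interferon-stimulated genes, against 2.5% of all probe sets. Ifit3, an antiviral effector, measured 6.79, 6.44 and 7.44 in treated EBs at day 12, against 6.15, 5.87 and 6.14 in untreated EBs. Day 8 signals were 5.96, 5.96 and 5.93 in treated EBs, against 6.17, 5.99 and 5.88 in untreated EBs. Treated arrays were the higher ones at day 12, with replicate 3 the highest, and overlapped the untreated ones at day 8. The change was 0.90 ± 0.22 (SE; adjusted p = 0.0221, limma), with an adjusted p of 0.0634 without untreated day 12 replicate 2, 0.0542 without treated day 8 replicate 3 and 0.0568 without untreated day 8 replicate 1.

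The 6 were Oasl2, Ifit3, Ddx58, Ifitm3, Ifitm1 and Ifi27, with 0 downward changes and a median of 0.53 over the 15. Of the 15, 7 were higher in treated EBs at day 12 (7.08% over all probe sets) against 0 at day 8. The membrane antiviral proteins Ifitm3 and Ifitm1 had changes of 0.73 and 0.66 (adjusted p = 0.0096 and 0.0077, limma), which kept their calls when any 1 of the 12 arrays was left out. Mean signals of the list in treated EBs at day 12 were 8.09, 7.97 and 8.53, against 7.82, 7.66 and 7.81 in untreated EBs, so replicate 3 was the highest. Without that array 3 genes were called, and Oasl2 and Ddx58 had adjusted p of 0.107 and 0.119. The calls of Ddx58 and Ifi27 were each lost without 8 of the 12 arrays in turn, and that of Oasl2 without 7 (adjusted p up to 0.119, 0.125 and 0.107, limma). The count was 2 without untreated day 12 replicate 2 or treated day 8 replicate 3, 3 without untreated day 8 replicate 2 and 8 without treated day 8 replicate 2.

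The stretch before Ifit3 is shown because it carries the interferon-stimulated response element type motif, GAAA followed after any 2 bases by another GAAA, which occurs 2 times, in capitals as read on the other strand. It lies at chr19:34583279-34583528, plus strand, GRCm38.p6 (RefSeq start).
Ifit3: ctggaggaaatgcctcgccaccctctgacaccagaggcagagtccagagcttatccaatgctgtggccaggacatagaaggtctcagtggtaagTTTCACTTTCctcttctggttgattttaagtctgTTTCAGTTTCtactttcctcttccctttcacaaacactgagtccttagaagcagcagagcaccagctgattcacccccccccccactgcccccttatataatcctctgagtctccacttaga
Of 17 listed interferon genes, 14 had a promoter entry, and 7 of these held this motif on either strand, against 3.46% of all genes. Of the 5 with a called change and an entry, 1 held it, Ifit3.

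Ogn and Fmod, small leucine-rich proteoglycans that bind collagen, had effects that emerged upward. Fmod measured 10.64, 8.83 and 10.46 in treated EBs at day 12, against 8.32, 7.60 and 7.74 in untreated EBs, and 6.73, 6.37 and 6.40 in treated EBs at day 8, against 6.32, 6.36 and 6.20 in untreated EBs. Treated arrays were the higher ones at day 12, by 2.09 on average, and at day 8 by 0.21, which was not called. The change of Fmod was 1.88 ± 0.40 (SE; adjusted p = 0.0091, limma).

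Ogn measured 8.72, 6.38 and 8.57 in treated EBs at day 12, against 6.35, 5.43 and 5.54 in untreated EBs, with treated replicate 2 only just above the highest untreated array. Its change was 2.20 ± 0.50 (SE; adjusted p = 0.0146, limma) and had an adjusted p of 0.0533 without treated day 12 replicate 3. Lox, which crosslinks collagen and elastin, had a change of 1.91, and Wt1, a factor of mesothelium and kidney, of 1.60 (adjusted p = 0.004 and 0.0019, limma). Lox rose by 4.37 in treated EBs and by 2.45 in untreated EBs, and Wt1 by 1.59 in treated EBs, its untreated course of -0.01 not being called.

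Postn (periostin), a matrix protein, went the other way and had the largest downward change. It measured 13.10, 12.95 and 12.98 in treated EBs at day 12, against 12.67, 12.47 and 12.65 in untreated EBs. At day 8 it measured 12.69, 10.38 and 12.22 in treated EBs, against 10.41, 7.32 and 8.68 in untreated EBs. The arms were apart at day 12 by only 0.41, which was not called, and at day 8 differed by 2.96 with an overlap at treated replicate 2. The change was -2.54 ± 0.71 (SE; adjusted p = 0.0411, limma). It missed the threshold when any 1 of 9 of the 12 arrays was left out, with adjusted p from 0.0599 to 0.113. The 3 whose loss kept it were untreated day 8 replicate 1 and replicate 2 of treated day 12 and of treated day 8.

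Bves, a membrane protein of heart and epithelia, faded as well. It measured 10.69, 11.06 and 10.67 in treated EBs at day 12, against 10.62, 10.84 and 10.73 in untreated EBs, and 11.49, 9.80 and 11.19 in treated EBs at day 8, against 9.60, 8.54 and 9.16 in untreated EBs. The groups overlapped at day 12 and were apart at day 8. The change was -1.66 ± 0.40 (SE; adjusted p = 0.0186, limma), with an adjusted p of 0.0543 without treated day 12 replicate 3, 0.0528 and 0.0633 without replicates 1 and 3 of treated day 8, and 0.0611 without untreated day 8 replicate 2. Twist1, a mesenchymal transcription factor, had a change of -1.31 (-0.15 at day 12 and 1.17 at day 8; adjusted p = 0.0341, limma), whose call was lost without any 1 of 6 arrays, with adjusted p up to 0.108.

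Of 29 measured mesenchyme and matrix genes, 5 had an upward change (Ogn, Fmod, Wt1, Col6a1 and Col6a2), 2 a downward one (Postn and Twist1) and 8 persisted, among them Col1a1, Col1a2, Dcn and Pdgfra. The call of Col6a1 was lost without 1 of the 12 arrays and that of Col6a2 without 8 in turn (adjusted p up to 0.0504 and 0.124, limma). In treated EBs 19 were higher at day 12, against 13 at day 8, and 0 were lower on either day. The shares higher over all probe sets were 7.08% at day 12 and 4.65% at day 8. Of all probe sets 2.5% had an upward and 2.45% a downward change, and 662 of the 21789 persisted. The block gave 8 upward and 4 downward. Without treated day 12 replicate 3 there were 2 upward and 0 downward, and without treated day 12 replicate 2 there were 8 and 2. The downward count was 5 without treated day 8 replicate 2, and 0 without replicate 1 or 2 of untreated day 12, replicate 1 or 3 of treated day 8 or replicate 2 of untreated day 8. Without the day 8 replicate 2 pair there were 3 and 5.

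Gabra3, a subunit of the GABA-A receptor, measured 11.28, 9.99 and 10.88 in treated EBs at day 12, against 9.14, 8.35 and 8.68 in untreated EBs. Its day 8 signals were 8.01, 8.45 and 8.20 in treated EBs, against 8.41, 9.11 and 8.98 in untreated EBs. Treated arrays were the higher ones at day 12 and overlapped the untreated ones from below at day 8. The change was 2.61 ± 0.34 (SE; adjusted p = 0.000277, limma), a 6.09-fold shift, and Gabra3 rose in treated EBs by 2.49, its untreated course of -0.11 not being called.

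Gria1, an AMPA receptor subunit, Hpse2, a heparanase-like protein, and Npy1r, a neuropeptide Y receptor, had changes of 1.98, 1.91 and 1.85 (adjusted p = 0.0061, 0.000531 and 0.0011, limma). Treated day 12 replicate 2 was the lowest of its group for each of these 3 genes, as it was for Gabra3, Ogn, Fmod, Lox and Wt1. In the retinoic acid pathway, which patterns the embryo through nuclear receptors, Rarb, a receptor, Aldh1a2 and Aldh1a3, which make the ligand, and Dhrs3, which limits it, had upward changes (1.37, 1.12, 0.39 and 0.82). These were 4 of 17 measured genes (2.5% over all probe sets), with 0 downward and a median of 0.16. Aldh1a2 (adjusted p = 0.0088, limma) kept its call when any 1 array was left out, and the other 3 did not: the list count was 1 without treated day 12 replicate 3 or treated day 8 replicate 3. It was 2 without treated day 12 replicate 1, untreated day 12 replicate 1 or 3, or untreated day 8 replicate 1 or 2.

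The visceral endoderm is the extraembryonic layer that nourishes the early embryo. Of 25 measured genes of this layer and of serum proteins, 6 persisted, against 662 of all 21789 probe sets. In treated EBs 12 of the 25 were higher and 3 lower at day 12, against 10 higher and 0 lower at day 8. Over all probe sets 7.08% were higher and 10.1% lower at day 12, against 4.65% and 3.87% at day 8. Afp, alpha-fetoprotein, measured 9.86, 9.87 and 9.74 in treated EBs at day 12, against 8.67, 8.36 and 8.39 in untreated EBs, and 7.06, 6.88 and 6.93 in treated EBs at day 8, against 7.13, 6.75 and 6.61 in untreated EBs. The groups were far apart at day 12 and overlapped at day 8, with a change of 1.22 ± 0.17 (SE; adjusted p = 0.000357, limma). Alb, albumin, had a change of 1.29 (adjusted p = 0.0024, limma). In this list 3 genes had an upward change (Alb, Afp and Apoa1) and 2 a downward one, Apom and Foxa1 (-1.04 and -0.96; adjusted p = 0.0358 and 0.0094, limma), with a median of -0.00, against 2.5% upward and 2.45% downward over all probe sets. The Apoa1 effect was already called at day 8. The Apom call was lost without 7 of the 12 arrays in turn (adjusted p up to 0.1063).

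**Figure D3:**
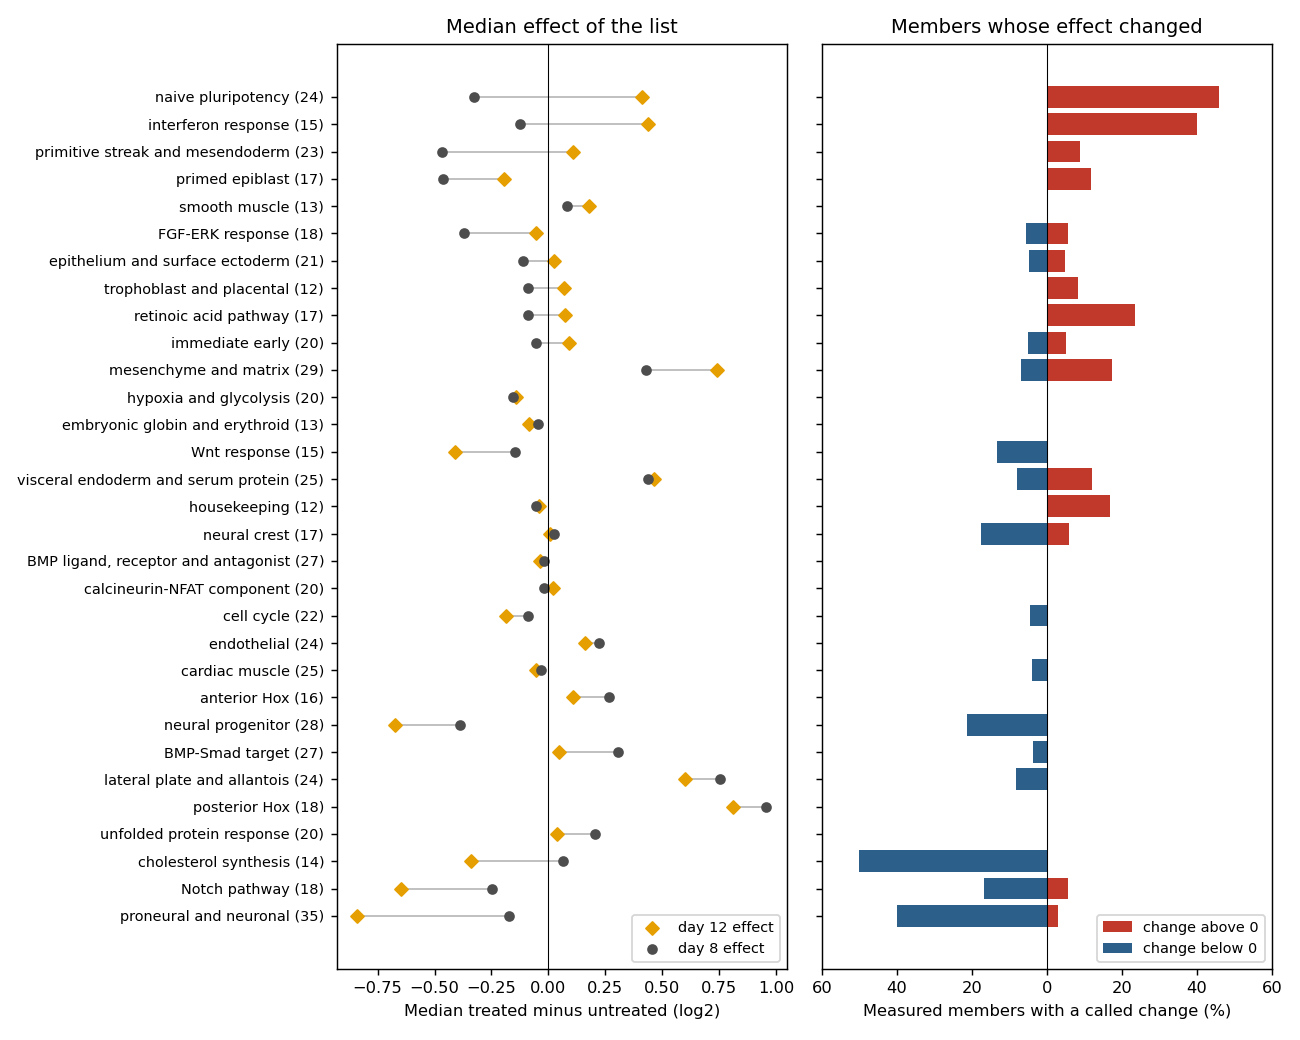
Gene lists ordered by their median change, with the number of measured genes in parentheses. Left, median treated minus untreated difference (log2) at day 12 (diamonds) and day 8 (circles), and right, the share of measured genes (%) with a called change, to the right of 0 for changes above 0 and to the left for changes below 0. The naive pluripotency list (11 of 24 upward) stands at the top and the proneural and neuronal list (14 of 35 downward) at the bottom.

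Effects that grew were few. Apoa1, an apolipoprotein, had an effect of 1.45 at day 12 and 0.72 at day 8, a change of 0.73 (adjusted p = 0.0383, limma). Lgals3bp, a secreted glycoprotein, had 1.34 and 0.62, a change of 0.72 (adjusted p = 0.0236, limma). The call of Apoa1 was lost without 8 of the 12 arrays in turn and that of Lgals3bp without 5, with adjusted p up to 0.0978 and 0.0849. The 11 probe sets that grew downward included Shh, the ventral morphogen (-1.30 at day 12 and -0.44 at day 8), Nkx2-2, its ventral target (-1.55 and -0.37), the forebrain factor Fezf1 (-2.09 and -0.70) and Ptprz1, a receptor phosphatase of progenitors (-2.13 and -0.74). Their changes of -0.85, -1.18, -1.40 and -1.40 had adjusted p of 0.0104, 0.000298, 0.0012 and 0.0055 (limma), and these 4 were chosen after their values were seen. Ppfibp2, a liprin, was the 1 effect that shrank (0.29 at day 12 and 0.77 at day 8; adjusted p = 0.0484, limma), and it missed the threshold without any 1 of 9 arrays, with adjusted p up to 0.127.

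Among effects that persisted, Tbx4, a T-box factor of hindlimb and allantois, had the highest one at day 8. It measured 11.11, 10.27 and 10.58 in treated EBs at day 12, against 9.07, 8.70 and 8.74 in untreated EBs, and 11.88, 11.05 and 12.05 in treated EBs at day 8, against 9.04, 8.13 and 9.18 in untreated EBs. On both days the treated arrays were the higher ones. The effect was 1.82 at day 12 and 2.87 at day 8, and the change of -1.06 missed the threshold (adjusted p = 0.0731, limma) but passed it with the replicate block (adjusted p = 0.000334). It also passed without treated day 12 replicate 1 (0.041), treated day 8 replicate 2 (0.00693) or untreated day 8 replicate 3 (0.0381).

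Gpr50, an orphan receptor, and Rbp4, the carrier of retinol in serum, were higher in treated EBs by 1.96 and 1.22 at day 12 and by 2.27 and 2.03 at day 8. Prss35, Lrrc17 and Asb12 were higher by 2.13, 2.21 and 1.38 at day 12 and by 1.80, 1.66 and 1.75 at day 8. Their 95% intervals for the change were wide, from -1.32 to 0.71 for Gpr50 and from -0.62 to 1.71 for Lrrc17. Otx2, a forebrain and epiblast factor, had the lowest persisting effect at day 8, -1.52, and one of -1.39 at day 12 (interval of the change -0.89 to 1.14). It measured 10.07, 11.11 and 10.71 in treated EBs at day 12, against 11.92, 12.25 and 11.89 in untreated EBs, all lower. Lgi1, Dab1, an adaptor of reelin signalling, and the axon genes Nrcam and Slit1 had day 12 effects of -1.28, -1.24, -1.73 and -1.66 and day 8 effects of -1.38, -1.26, -1.05 and -0.88. Adgrv1 had -1.67 and -0.90. With the replicate block the effects of Nrcam, Slit1 and Adgrv1 had grown (adjusted p = 0.0247, 0.0318 and 0.0165, limma).

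The posterior Hox genes, which specify the trunk and tail, mostly persisted. Of 18 measured, 11 persisted as higher in treated EBs, against 345 of all 21789 probe sets. The change was called in 0 of the 18 by limma's adjusted p, near the 4.95% over all probe sets, with a median of -0.18. At an unadjusted p under 0.05, 3 changes were downward and 1 was upward. At day 12, 13 were higher, against 12 at day 8. The shares higher over all probe sets were 7.08% and 4.65%. Hoxa13 had an effect of 1.30 at day 12 and 1.69 at day 8, and Hoxa10 of 1.24 and 0.99, with intervals of the change of -1.08 to 0.30 and -0.44 to 0.93. The block called 4 downward changes and 1 upward one in this list, with Hoxc6, Hoxc8, Hoxd8 and Hoxa9 at adjusted p of 0.0028, 0.0091, 0.0175 and 0.0272 (limma) and effects of 1.02, 0.78, 0.95 and 0.95 at day 12, against 1.98, 1.45, 1.50 and 1.59 at day 8. Without treated day 8 replicate 2, 5 changes in the list were called downward, and without treated day 12 replicate 2, 1 was.

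Over all 662 persisted probe sets the median size of the effect was 0.58 at day 12 and 0.52 at day 8, larger at day 12 in 358 and smaller in 304. The median half-width of the 95% interval of the change was 0.37, and for 593 of the 662 the interval lay within a 2-fold change either way. A missed threshold therefore leaves room for changes of that size and does not show equal effects.

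Unfolded protein response genes, chaperones and factors of the endoplasmic reticulum, had called effects at day 8 in 10 of 20, all higher in treated EBs. The share higher at day 8 over all probe sets was 4.65%. At day 12, 0 of the 20 were higher and 1 was lower. Hspa5, the main chaperone of that compartment, had an effect of 0.05 at day 12 and 0.28 at day 8, and Xbp1 of 0.16 and 0.32. The change itself was called in 0 of the 20 by limma, near the 4.95% over all probe sets, and in 0 with the block. Its median was -0.18, with 18 of 20 values below 0, against 9763 of all 21789 probe sets. At an unadjusted p under 0.05, 8 were downward and 0 upward, a threshold whose share over all probe sets was not counted. By adjusted p, 2 were called downward without replicate 2 of treated day 12 or of treated day 8.

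Components of the drugs' target pathway had no called change, which is near the 4.95% called over all probe sets for a list of 20. Of 20 calcineurin and NFAT components, including Ppp3ca and Ppp3cb, the catalytic subunits, and Nfatc1, 0 had a called change in either direction by limma, with a median of -0.04. At an unadjusted p under 0.05, 3 were downward and 0 upward. Rcan1, a feedback inhibitor of calcineurin, measured 9.58, 9.87 and 9.79 in treated EBs at day 12, against 9.90, 10.02 and 9.97 in untreated EBs, and 10.28, 10.05 and 10.05 in treated EBs at day 8, against 10.23, 9.97 and 10.05 in untreated EBs. Treated arrays were the lower ones at day 12, but neither that effect (-0.22) nor the change (-0.26, 95% interval -0.57 to 0.04) was called. The block called 2 downward changes in this list, against 4.79% of all probe sets. These arrays measure mRNA, not phosphatase activity or NFAT location.

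BMP signals oppose neural fate in early ectoderm. Of 27 BMP-Smad targets, 1 had a downward change (Id4, -0.74, adjusted p = 0.0063, limma), a share near the 2.45% over all probe sets, and the median was -0.15. The block gave 2 downward, and leaving out 1 array gave 3 without treated day 12 replicate 2 and 2 without untreated day 8 replicate 1. Of these 27 targets, 8 were higher and 6 lower in treated EBs at day 12, against 9 higher and 1 lower at day 8. Shares over all probe sets were 7.08% higher and 10.1% lower at day 12, and 4.65% and 3.87% at day 8. Of 27 ligands, receptors and antagonists, 0 had a called change by limma, near the 4.95% over all probe sets. At an unadjusted p under 0.05, 4 were downward and 2 upward. The block called 1 downward change among them, against 4.79% of all probe sets. The changes of Id1, Id2, Id3, Msx2, Smad6 and Bmp4 were -0.28, -0.40, -0.58, -0.54, -0.35 and -0.02, and none was called. The lateral mesoderm factors Foxf1 and Hand1 had changes of -0.01 and 0.02, with intervals of -0.81 to 0.79 and -0.86 to 0.91. Foxf2 and Isl1 were the 2 downward changes among 24 lateral plate genes (-1.22 and -1.18, adjusted p = 0.0031 and 0.0245, limma), against 2.45% over all probe sets. The block gave 4 downward and 1 upward. The downward count was 4 without treated day 8 replicate 2 and 3 without untreated day 8 replicate 3. The Isl1 call was lost without 6 of the 12 arrays in turn (adjusted p up to 0.0806). Of the 24 lateral plate genes, 9 were higher and 2 lower in treated EBs at day 12, against 12 higher and 0 lower at day 8.

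Among neural crest genes, the migratory cells of the dorsal neural tube, Ednrb, an endothelin receptor, Sox9 and Ngfr had downward changes (-1.41, -1.08 and -0.62) and Pax3 an upward one (0.87), 4 of 17 with a median of -0.02. The share with a called change over all probe sets was 4.95%. The Pax3 call was lost without replicate 1 of treated day 8 or replicate 2 of untreated day 8 (adjusted p = 0.0551 and 0.0526, limma). Cardiac genes had 1 downward change of 25, a share near the 2.45% over all probe sets. It was that of Tnni3, lost without any 1 of 8 arrays (adjusted p up to 0.1011, limma). Endothelial genes had 0 of 24 by limma, near the 4.95% over all probe sets. At an unadjusted p under 0.05, 5 of them were downward. The block called 5 downward, against 4.79% of all probe sets. Cdkn1c, a cyclin-dependent kinase inhibitor, was the 1 change among 22 cell cycle genes (-0.20 at day 12 and 1.10 at day 8, adjusted p = 0.0179, limma). That share is near the 4.95% over all probe sets. The adjusted p of Cdkn1c was 0.0532, 0.0521 and 0.0571 (limma) without treated day 12 replicate 3, treated day 8 replicate 1 and untreated day 8 replicate 2.

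The 2 courses behind each change, day 12 against day 8 within an arm, show which arm moved. For the 544 upward changes the untreated course fell in 273 and rose in 107, and the treated course rose in 298 and fell in 70. For the 534 downward changes the untreated course rose in 449 and fell in 9, and the treated course rose in 218 and fell in 117. Over all probe sets 18.9% rose and 20.1% fell in untreated EBs, and 16.5% rose and 17.3% fell in treated EBs.

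The classes differed in these courses. Of the 371 effects that emerged downward, the untreated course rose in 327, and in 181 both arms rose. Of the 351 that emerged upward, the treated course rose in 241, the untreated course rose in 93, and the untreated course fell in 132. Of the 104 faded effects with an upward change, the untreated course fell in 80 and the treated course fell in 19 and rose in 26. Of the 105 with a downward change, the untreated course rose in 78 and the treated course rose in 18 and fell in 38. For a faded effect it was thus more often the untreated arm whose course was called. The courses share their arrays with the change and are a description.

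**Figure D4:**
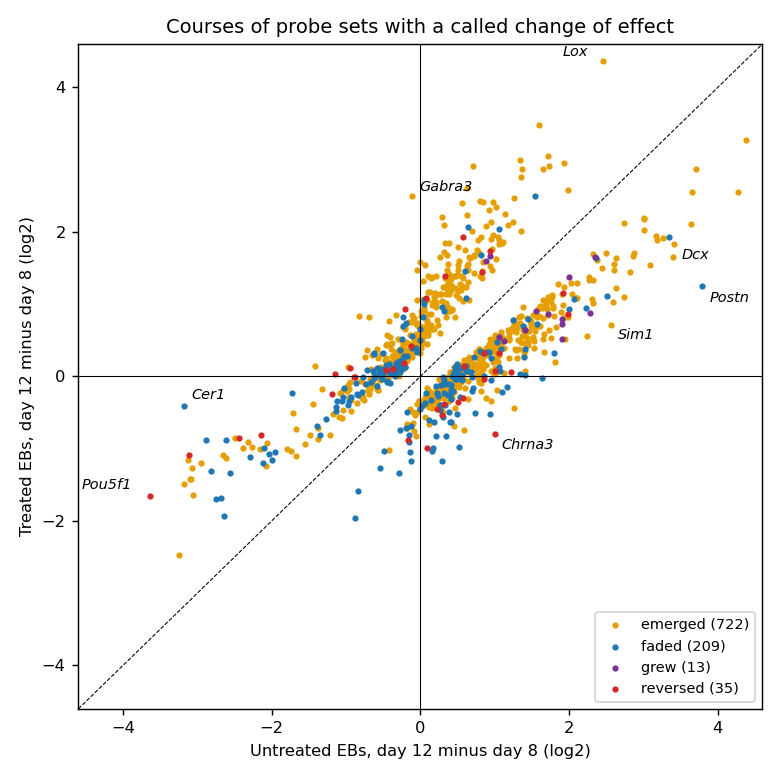
Course of treated EBs (vertical axis, day 12 minus day 8, log2) against that of untreated EBs (horizontal axis, same units) for probe sets with a called change in the 4 classes shown. The dashed line marks equal courses, and the band around it is empty because called changes lie off it. Most emerged downward effects lie at the lower right, where the untreated course rose (327 of 371).

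Effects called at day 6 were followed because their arrays are not among those of the change. At day 6 265 probe sets were higher in treated EBs (1.22% of those tested) and 116 were lower (0.532%). The median effect of the 265 was 0.65 at day 6, 0.22 at day 8 and 0.08 at day 12, and that of the 116 was -0.45, -0.23 and -0.02. The change opposed the day 6 effect in 18 of the 265 (6.79%) and 10 of the 116 (8.62%), and had its direction in 2 and 2. Over all probe sets 2.45% had a downward and 2.5% an upward change. With the block 153 changes opposed the day 6 effect and 31 had its direction. Choosing probe sets by their day 6 calls raises the size of the day 6 median itself, so the drop from it to the later medians is not read as a decline.

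The day 4 and day 6 effects of the classes were small. The calls at days 8 and 12 define the classes, so the medians of faded, persisted and reversed effects on those days follow from the rule. Effects that faded as higher had a median of 0.06 at day 4, 0.14 at day 6, 0.52 at day 8 and -0.14 at day 12. Those that faded as lower had -0.01, -0.17, -0.44 and 0.17. Effects that persisted as higher had 0.07, 0.09, 0.65 and 0.62, and those that persisted as lower 0.04, -0.16, -0.44 and -0.56. Emerged effects had medians between -0.10 and 0.05 at days 4, 6 and 8, which the class rule fixes for day 8 alone. Reversed effects had a median of -0.18 at day 6 where lower at day 8 and of 0.06 where higher.

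**Figure D5:**
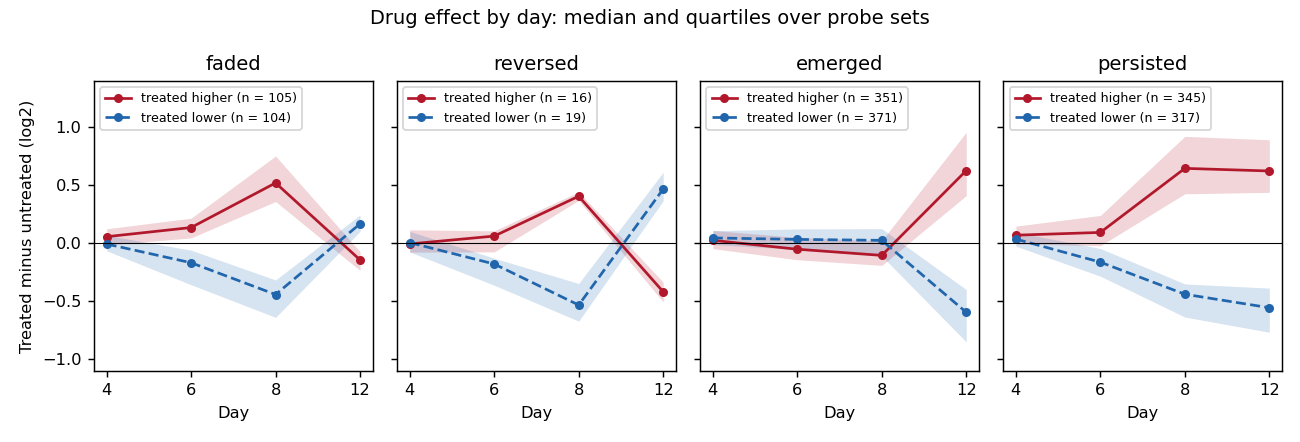
Treated minus untreated difference (log2, vertical axis) at days 4, 6, 8 and 12 (horizontal axis, categories) for 4 classes. Lines are medians over probe sets and bands their quartiles, in red for effects with treated EBs higher and in blue, dashed, for lower, taken at day 8 (at day 12 for emerged effects), with the number of probe sets in each legend. Faded and persisted effects have like medians at day 8 (0.52 and 0.65 where higher) and part at day 12 (-0.14 and 0.62). The class rule, which uses the day 12 calls, fixes this parting.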

How the data were processed

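The deposited values of 24 Affymetrix Mouse Gene ST 1.0 arrays were used; the authors made these log2 signals with RMA in Affymetrix Expression Console, per the submitters' processing notes, with no version or genome build named. The log2 scale was taken from the values. Of 35556 probe sets, 21789 have a single gene symbol in the platform annotation, 1621 have several and 12146 have none, and only the 21789 were tested. One mean per group was fitted over 24 arrays (16 residual degrees of freedom) in limma 3.58.1 under R 4.3.3, with moderated tests and Benjamini-Hochberg adjustment at 0.05, on code tested on simulated data. Tables were made with pandas 2.3.3 and numpy 2.4.6 and figures with matplotlib 3.10.9 (Python 3.11.15). For genes with several probe sets (999), the one with the highest mean was used. Promoters came from RefSeq tables of GRCm38.p6, and motifs were searched on both strands of the 250 bases before each start.

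Genes were named by rule: the 12 largest called changes in each direction with one sign in all same-numbered arrays, the 6 largest persisted, 5 largest reversed and 5 largest emerged effects in each direction, all of a shrunken or grown class of 5 or fewer, 19 preset genes, and up to 4 of smallest p in each of 31 gene lists. The genes, lists and comparisons were chosen with earlier results of these data known. Shh, Nkx2-2, Fezf1, Ptprz1, Twist1, Col6a2, Esrrb, Neurod1, Ddx58 and Atoh1 were added after their values were seen, and further list members are given to complete a count.

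Replicates are independent experiments by their labels. Deviations from the group means correlated between same-numbered treated and untreated arrays with r of 0.118, 0.338 and 0.265 at day 12 and 0.451, 0.548 and 0.134 at day 8 (across probe sets). All exceeded 0.1, the limit set for pairing the arms within a day. At day 12 treated replicate 3 also had r of 0.25 with untreated replicate 1. At day 4 the same-numbered r were 0.033, 0.214 and -0.027, so pairing was not shown there. The numbers do not pair day 12 with day 8 (r between -0.279 and 0.245). Tests ignore the pairing unless the block is named. Alternatives covered the filter on dim probe sets, normalization, array weights, the variance prior, the arrays fitted, a 2-fold threshold, replicate blocks and each array left out. Arrays have no read depth; their number limits the precision. No detection calls were used, so a dim probe set may hold background alone.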

Additional observations from a re-analysis of the deposited data

Results flagged for a closer look

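Each of the following genes had a drug effect that differed between day 12 and day 8 by limma's test of the difference itself, with a Benjamini-Hochberg adjusted p under 0.05 over all 21789 probe sets, and 4.95% of those probe sets passed the same test. Among pluripotency, epiblast and mesendoderm genes, the changes on the log2 scale were those of Cer1 (2.78), Utf1 (2.03), Fgf5 (2.02), Pou5f1 (1.98), Dppa2 (1.97), Nanog (1.74), Lefty1 (1.59), Dnmt3b (1.22) and Esrrb (1.15). Among receptor subunits, matrix, mesenchymal and other genes, the changes on the log2 scale were those of Gabra3 (2.61), Ogn (2.20), Gria1 (1.98), Hpse2 (1.91), Lox (1.91), Fmod (1.88), Npy1r (1.85), Wt1 (1.60), Col6a1 (1.00) and Col6a2 (0.93). Among retinoic acid, serum protein and other secreted or metabolic genes, the changes on the log2 scale were those of Rarb (1.37), Mgst1 (1.36), Epp13 (1.34), Alb (1.29), Afp (1.22), Aldh1a2 (1.12), Dhrs3 (0.82), Apoa1 (0.73), Lgals3bp (0.72) and Aldh1a3 (0.39). Among interferon-related, housekeeping and other genes, the changes on the log2 scale were those of Oasl2 (1.11), Ifit3 (0.90), Ddx58 (0.80), Ifitm3 (0.73), Ifitm1 (0.66), Grhl3 (0.90), Pax3 (0.87), Atoh1 (0.76), Tpbpa (0.60), Hes7 (0.55), Ier3 (0.51), Gusb (0.41) and B2m (0.33). Gusb and B2m were the 2 upward changes among 12 measured housekeeping genes (0 downward, median -0.005), against 2.5% upward over all probe sets. Downward, among neural regulators, the changes on the log2 scale were those of Sim1 (-1.84), Sim2 (-1.64), Dbx1 (-1.55), Fezf1 (-1.40) and Neurod1 (-1.38). Smaller ones were those of Nkx2-2 (-1.18), Isl1 (-1.18), Olig2 (-1.06), Neurog2 (-0.99), Myt1 (-0.98), Shh (-0.85) and Irx3 (-0.63). Foxa1 (-0.96) belongs to the visceral endoderm list and Nr4a2 (-0.81) to a list of immediate early genes. Among neuronal, progenitor and other proteins, the changes on the log2 scale were those of Chrna3 (-1.80), Clvs1 (-1.74), Ppp1r17 (-1.68) and Gpm6a (-1.60). Next came Dcx (-1.59), Efcab1 (-1.56), Elavl4 (-1.54), Pak3 (-1.43), Ptprz1 (-1.40), Scn3b (-1.17), Gfra1 (-1.12), Nes (-1.04) and Tubb3 (-1.03). Among signalling and cell cycle genes, the changes on the log2 scale were those of Apcdd1 (-1.70), Ednrb (-1.41), Cdkn1c (-1.31), Hey2 (-1.18), Fgfr2 (-0.90), Mfng (-0.84), Id4 (-0.74), Ccnd1 (-0.68), Ngfr (-0.62) and Hes5 (-0.58). Among mesodermal, matrix and remaining genes, the changes on the log2 scale were those of Postn (-2.54), Bves (-1.66), Twist1 (-1.31), Foxf2 (-1.22), Slc22a23 (-1.08), Sox9 (-1.08), Apom (-1.04), Mllt3 (-0.93), Tnni3 (-0.56), Ppfibp2 (-0.48) and Trp63 (-0.41). Among cholesterol synthesis genes, the changes on the log2 scale were those of Cyp51 (-0.60), Lss (-0.57), Sc5d (-0.53) and Hmgcs1 (-0.51). The sign of each change of the genes named by rule stayed the same under every alternative in which it was tested. Alternatives that alter only the variance, the threshold or the probe sets tested could not turn it. Of these 94 changes, 64 kept their call when any 1 of the 12 arrays of days 8 and 12 was left out. The other 30 lost it for at least 1 array, with the highest adjusted p (limma) given for each gene. The call was lost without 10 arrays in turn for B2m (0.105), without 9 for Ier3 (0.131), Ppfibp2 (0.127) and Postn (0.113), and without 8 for Col6a2 (0.124), Ddx58 (0.119), Tnni3 (0.101), Apoa1 (0.0978) and Esrrb (0.0904). It was lost without 7 for Oasl2 (0.107), Apom (0.106), Aldh1a3 (0.105) and Hey2 (0.086), and without 6 for Rarb (0.113), Twist1 (0.108), Isl1 (0.0806) and Ccnd1 (0.066). For Hes7 (0.11) and Lgals3bp (0.0849) it was lost without 5, and for Hes5 (0.0747), Trp63 (0.0746), Fgf5 (0.0715), Bves (0.0633) and Dhrs3 (0.0585) without 4. Ifit3 (0.0634) and Cdkn1c (0.0571) lost it without 3, Lss (0.0601) and Pax3 (0.0551) without 2, and Ogn (0.0533) and Col6a1 (0.0504) without 1.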

How the results depend on the processing

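Counts of calls depended on the processing, while of the 39 called changes named by rule, 0 turned sign under any of the 24 alternatives in which they were tested. Many of these alternatives could not turn a sign. The choice of probe sets, the variance prior, the replicate blocks, the fit of only 12 arrays and the 2-fold threshold leave each estimate as it is. Most of the 39 were also named for the size of their change or effect. Of these 39, 20 lost their call with only the 12 arrays of days 8 and 12, 5 over every probe set of the table, 2 with an intensity trend and robust prior (Postn and Ppfibp2) and 7 without treated day 12 replicate 3. The 20 were Apoa1, Bves, Cer1, Dbx1, Elavl4, Epp13, Fgf5, Fmod, Gfra1, Gria1, Lefty1, Lgals3bp, Lox, Nes, Ogn, Postn, Pou5f1, Ppfibp2, Slc22a23 and Utf1. Leaving out 1 array at a time gave 230 to 1017 upward and 261 to 1026 downward changes, 319 to 3971 effects at day 8, 2232 to 4535 at day 12, 32 to 912 faded, 0 to 56 shrunken, 4 to 178 reversed, 2 to 71 grown, 358 to 1302 emerged and 163 to 1225 persisted effects, and 9 to 79 opposite and 2 to 16 same changes for day 6 effects. The fewest upward changes came without treated day 12 replicate 3 and the most without treated day 8 replicate 2. Without treated day 12 replicate 2 there were 871 upward and 917 downward changes, with 1302 emerged and 71 grown effects.

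The replicate block within day, which the pairing at days 8 and 12 calls for, gave 1074 upward and 1043 downward changes, 2983 effects at day 8, 527 faded, 58 shrunken, 141 reversed, 99 grown, 1104 emerged and 1103 persisted effects, with 153 opposite and 31 same changes for day 6 effects. It ended no call of the 39. Of the other flagged genes, B2m lost its call with this block (adjusted p = 0.0541, limma). Its part in some calls of other genes stands beside them. A replicate block across days gave 5 shrunken, 33 grown, 46 opposite and 17 same. Array weights gave 1631 upward, 1475 downward, 5099 at day 8, 1108 faded, 27 shrunken, 241 reversed, 114 grown, 1325 emerged, 1483 persisted, 305 opposite and 56 same. Only the 12 arrays of days 8 and 12 gave 91 upward, 128 downward, 462 at day 8, 23 faded, 0 shrunken, 4 reversed, 3 grown, 184 emerged and 150 persisted, from fewer residual degrees of freedom. A change of at least 2-fold gave 106 upward, 87 downward, 41 faded, 0 shrunken, 4 grown, 131 emerged, 6 opposite and 1 same.

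Over every probe set of the table there were 309 upward changes, 102 faded, 0 shrunken, 10 reversed and 4 grown effects, with 11 opposite and 2 same. Probe sets above the 40th percentile of mean level gave 351 upward, 2 shrunken and 8 grown, over fewer probe sets. Quantile normalization gave 2 shrunken and 54 opposite, and the trend and robust prior gave 0 shrunken. Without replicate 2 of both day 8 groups, an alternative chosen after seeing the data, there were 454 faded, 31 shrunken, 121 reversed and 4 grown effects, with 56 opposite and 13 same. Where no construction of an alternative shows the cause, the cause was not tested. With 3 arrays per group, no detection calls and a medium switch on the day of withdrawal, small changes and dim genes are the least certain.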
